A study of Mus musculus with 2 samples.

Results

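Among 20807 protein-coding genes on the 19 autosomes, 721 were poor in CpG dinucleotides around their most upstream annotated end. They nevertheless carried trimethylation of lysine 27 of histone H3 (H3K27me3) near that end in both replicates. They were chosen by 2 criteria. The CpG ratio, the observed number of CpG dinucleotides over the number expected from the C and G content, was under 0.30 in the 1001 bp centred on the gene's most upstream annotated base (its 5′ end), and a peak of each replicate's own list reached the window of 1 kb on each side of that base. The low ratio alone held for 6736 promoters, 32.4% of all. Of those, 10.7% were marked in both replicates, against 26.8% of all autosomal protein-coding genes, and the 721 made up 12.9% of all marked promoters. Other starts of the same gene can have a higher ratio: requiring every protein-coding transcript start to be under the limit gave 490 members. A peak in replicate 1 alone was present at 107 low-CpG promoters and in replicate 2 alone at 351, and 5557 had no peak in either. Because the CpG ratio and the peak calls chose the members, both are described here without a test, and genes are not replicates of a condition.

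The data came from chromatin immunoprecipitation with an H3K27me3 antibody and sequencing in E14TG2a.4, a male embryonic stem cell line of the mouse strain 129/Ola that the labels class as embryonic with an age of 3.5 day, cultured without any treatment that the labels name. There were 2 samples, biological replicates 1 and 2 of a single group, so no condition could be compared with another. The peak list of replicate 1 held 63651 peaks over 53.6 Mb and that of replicate 2 held 98582 peaks over 58.4 Mb, with an unknown read depth behind each. All positions are on build mm10 (GRCm38).

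H3K27me3 is laid down by Polycomb repressive complex 2 and is found at the promoters of genes that a cell keeps silent but may use later. In mouse embryonic stem cells it lies chiefly over CpG islands, stretches of unmethylated sequence in which CpG dinucleotides have been kept, and Polycomb-associated proteins with a CXXC zinc finger bind such sequence directly. Promoters of low CpG ratio usually belong to genes of differentiated tissues, and their CpG sites are mostly methylated in the cells that do not use them.

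The sequences of 6 members show how CpG dinucleotides lie just before such starts. Each run is the 250 bp before the 5′ end, a part of the 1001 bp over which the ratio was taken, read 5′ to 3′ on the strand of the gene, from the RefSeq copy of GRCm38, with CpG dinucleotides in capitals. None of these stretches overlaps an annotated exon. Tnf (an inflammatory cytokine), Hoxb2 (a homeobox factor of the hindbrain), Kcnq1 (a potassium channel of heart and inner ear) and Emilin2 (an extracellular matrix glycoprotein) are among the 10 members of highest peak signal. Acta1 (skeletal muscle alpha-actin) ranked highest among the contractile genes, and Ido1 (an enzyme of tryptophan breakdown) is among the 5 members farthest from CpG-rich sequence by the main definition given below the sequences.
Tnf (chr17:35202008-35202257, minus strand): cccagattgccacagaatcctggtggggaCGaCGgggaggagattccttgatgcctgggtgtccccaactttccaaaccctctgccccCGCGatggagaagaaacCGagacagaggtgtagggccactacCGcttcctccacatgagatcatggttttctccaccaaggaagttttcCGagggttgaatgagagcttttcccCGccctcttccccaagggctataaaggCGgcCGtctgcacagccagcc
Hoxb2 (chr11:96350275-96350524, plus strand): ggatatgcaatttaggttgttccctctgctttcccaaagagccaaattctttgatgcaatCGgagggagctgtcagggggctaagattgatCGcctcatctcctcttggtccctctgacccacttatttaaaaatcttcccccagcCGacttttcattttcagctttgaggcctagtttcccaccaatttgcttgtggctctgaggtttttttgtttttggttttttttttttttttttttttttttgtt
Kcnq1 (chr7:143106112-143106361, plus strand): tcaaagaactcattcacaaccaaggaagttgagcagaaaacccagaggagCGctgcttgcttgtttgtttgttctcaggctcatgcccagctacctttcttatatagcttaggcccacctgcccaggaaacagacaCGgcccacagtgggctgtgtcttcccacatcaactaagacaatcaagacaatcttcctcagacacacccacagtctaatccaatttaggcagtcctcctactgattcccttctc
Emilin2 (chr17:71311979-71312228, minus strand): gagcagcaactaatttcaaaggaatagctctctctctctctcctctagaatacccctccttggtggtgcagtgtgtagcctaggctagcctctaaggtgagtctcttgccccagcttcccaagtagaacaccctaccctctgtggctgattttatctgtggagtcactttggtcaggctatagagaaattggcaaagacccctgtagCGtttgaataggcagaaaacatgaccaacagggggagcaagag
Acta1 (chr8:123894752-123895001, minus strand): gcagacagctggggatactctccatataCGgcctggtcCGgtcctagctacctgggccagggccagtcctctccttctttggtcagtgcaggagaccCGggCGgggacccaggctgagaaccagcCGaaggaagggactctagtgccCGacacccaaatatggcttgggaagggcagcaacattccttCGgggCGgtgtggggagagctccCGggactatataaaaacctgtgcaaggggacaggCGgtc
Ido1 (chr8:24597010-24597259, minus strand): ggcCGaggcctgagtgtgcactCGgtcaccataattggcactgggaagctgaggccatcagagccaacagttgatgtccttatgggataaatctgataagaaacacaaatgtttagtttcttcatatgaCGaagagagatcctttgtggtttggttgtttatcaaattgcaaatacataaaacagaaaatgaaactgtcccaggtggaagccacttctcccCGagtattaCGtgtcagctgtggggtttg

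The stretches before Emilin2 and Kcnq1 hold 1 and 2 CpG dinucleotides, those before Hoxb2 and Ido1 hold 3 and 5, and those before Tnf and Acta1 hold 10 each. Taken over these 250 bp alone, the CpG ratio was 0.066 at Emilin2, 0.148 at Kcnq1 and 0.290 at Hoxb2, but above the limit of 0.30 at Ido1 (0.413), Acta1 (0.431) and Tnf (0.485), whose low ratio holds for the 1001 bp. CpG-rich sequence, defined as the union of 500 bp windows with a GC content of at least 55% and a CpG ratio of at least 0.65, began 320 bp downstream of the Kcnq1 5′ end and 273 bp downstream of the Emilin2 5′ end. The 250 bp of each stretch that hold the most CpG dinucleotides and no exon are shown for contrast, on the same strands. They hold 25 CpG dinucleotides at Kcnq1 and 19 at Emilin2.
Kcnq1 CpG-rich stretch (chr7:143107000-143107249, plus strand): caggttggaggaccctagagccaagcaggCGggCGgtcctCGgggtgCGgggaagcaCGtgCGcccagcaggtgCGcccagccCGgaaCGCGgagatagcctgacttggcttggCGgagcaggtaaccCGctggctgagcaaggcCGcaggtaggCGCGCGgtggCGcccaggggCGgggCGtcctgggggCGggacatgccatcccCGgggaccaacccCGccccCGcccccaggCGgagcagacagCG
Emilin2 CpG-rich stretch (chr17:71310446-71310695, minus strand): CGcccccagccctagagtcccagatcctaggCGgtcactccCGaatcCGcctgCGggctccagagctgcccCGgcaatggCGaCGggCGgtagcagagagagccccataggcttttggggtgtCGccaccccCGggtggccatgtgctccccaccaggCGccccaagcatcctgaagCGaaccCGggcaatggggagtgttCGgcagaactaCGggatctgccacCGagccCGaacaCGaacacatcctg

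Members had a median CpG ratio of 0.198, a median GC content of 52.1% and a median of 13 CpG dinucleotides in 1001 bp. Low-CpG promoters with no peak had medians of 0.142, 43.8% and 6, and marked promoters of ratio 0.30 or more had medians of 0.671, 60.5% and 60. Members were therefore poor in CpG by the rule, with a GC content between those of the other groups. The lowest ratios belonged to Krtap5-1, Gm2431, Fam166a, Gm45337 and Grb14. Krtap5-1, which encodes a keratin-associated protein of hair, had no CpG in its 1001 bp, and 597 bp of its 2 kb window were covered in replicate 1 and 159 bp in replicate 2. Krtap5-1, Gm2431 and Gm45337 lie close together on chromosome 7, with 5′ ends at positions 142297118, 142258354 and 142144607. Grb14, an adaptor protein of insulin signalling with a ratio of 0.024, was covered over 926 bp and 1002 bp, and another of its own annotated starts, of CpG ratio at least 0.60, lay 2205 bp away.

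The limits of the rule cut through a continuum. Klhl33, Mxra8 and Lat were the members just under the ratio limit, at 0.299965, 0.299903 and 0.299874, and Pnoc, Nectin4 and Col1a1 were the marked promoters just over it, at 0.300037, 0.300375 and 0.300448. At the edge of the 1 kb reach, the member Atp2a1 had 256 bp covered in replicate 1 and 1 bp in replicate 2. Eml1 had 4 bp and 189 bp, and Spem1 had 4 bp and 98 bp. Just outside it, the nearest peak of 1 replicate lay 1005 bp from Klhl31, 1011 bp from Ccdc80 and 1015 bp from Fabp7. Members that rest on a few covered bases are thus part of the 721: 134 had under 300 bp covered in the replicate with less cover.

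Most members were covered over part of the window only. The covered length ranged from 4 bp to the whole window in replicate 1, with a median of 874 bp, and from 1 bp to the whole window in replicate 2, with a median of 877 bp. Bases covered in both replicates had a median of 582 bp, against 1105.5 bp at marked promoters of ratio 0.30 or more. In 56 members no base of the window was covered in both. At the other end 264 members (36.6%) had at least 50% of the window covered in each replicate, against 56.3% of the marked promoters of ratio 0.30 or more, and 20 members were covered from end to end in both. Of these 20 the 10 first in the alphabet are A930004D18Rik, B230104I21Rik, Ccr10, Cnfn, Gata4, Gfy, Hoxc4, Klhl35, Kncn and Lrg1. They include Gata4, a zinc finger factor of heart and endoderm, Ccr10, a chemokine receptor, and Cnfn, which encodes cornifelin of the cornified skin envelope and lay 9902 bp from the nearest CpG-rich sequence (1431 bp by the looser definition given further on).

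Each peak carries a signal value from the authors, on a scale that neither labels nor headers define. The highest signal of a peak in the window had a median of 5.21 in replicate 1 and 5.40 in replicate 2 over the members, and 8.22 and 8.10 over marked promoters of ratio 0.30 or more. As percentile ranks among all peaks of a replicate, the members' medians were 63.5 and 76.7, and those of the other marked promoters 90.2 and 92.8. Tnf headed the members, with signals of 16.7 and 17.6 and the whole window covered in both replicates. The others of the 10 highest were Npdc1, Hoxb2, Hmx2, Gm28230, Kcnq1, Exoc3l4, Emilin2, Ddn and Car15. Hmx2, a homeobox factor of inner ear and brain, had signals of 15.6 and 15.0, with 1883 bp and 1871 bp covered. Another start of Hmx2 itself, of CpG ratio 0.660, lay 5288 bp downstream. Gm28230 starts inside the Hoxd cluster and had signals of 15.1 and 15.6, its window being fully covered in replicate 1 and over 1936 bp in replicate 2. Across the 721 members Spearman's rank correlation between the replicates' signals was 0.779 and Pearson's r was 0.848, and for the covered lengths they were 0.806 and 0.829. The points are genes, not independent samples, and a peak in both libraries was needed for each.

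**Figure D1:**
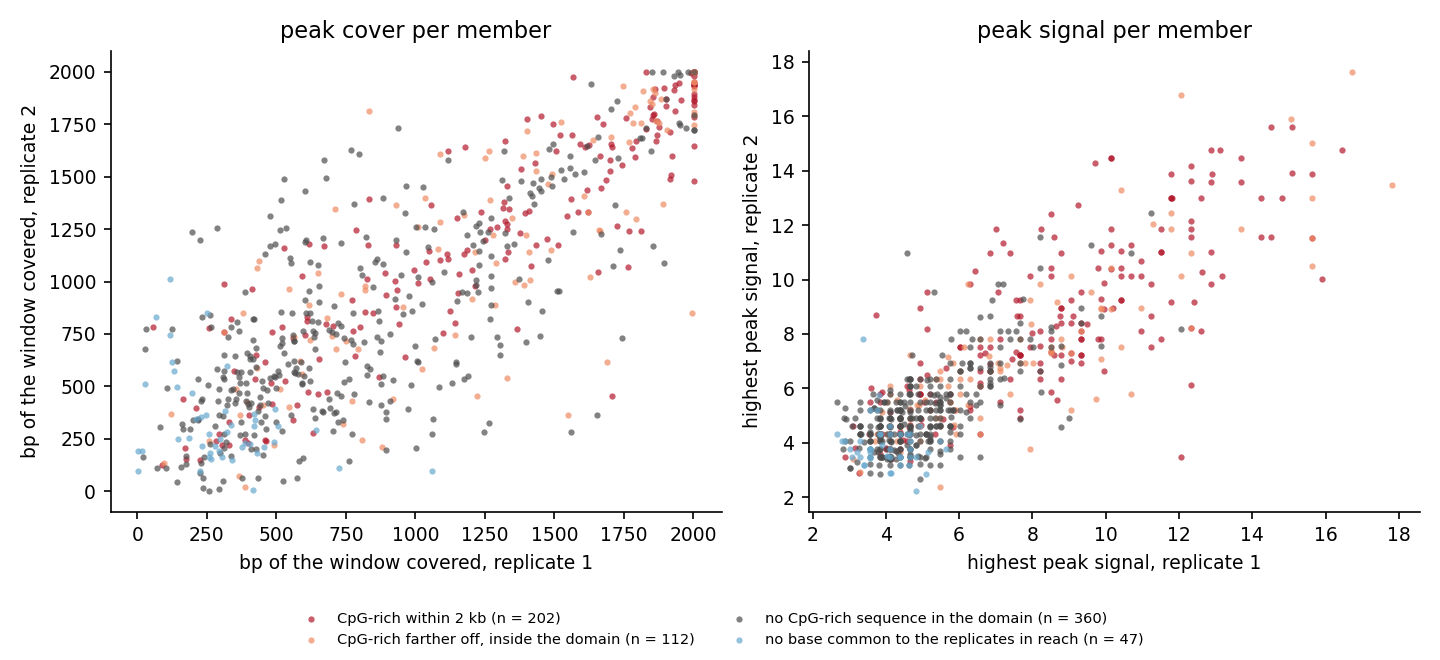
Each point is 1 of the 721 members, with replicate 1 on the x axis and replicate 2 on the y axis; the left panel gives the bp of the window covered and the right panel the highest peak signal (no unit). Colours give the 4 classes by CpG-rich sequence described in the text; the members with CpG-rich sequence within 2 kb had median covers of 1331 bp and 1263.5 bp, and those without a base common to the replicates in reach lie at the lower left, with medians of 278 bp and 254 bp.

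Low-CpG promoters were marked more often the nearer they lay to CpG-rich sequence. Of the 79 within 500 bp of it, 45 were members (57.0%, exact Clopper-Pearson 95% interval 45.3% to 68.1%). The share was 48.1% of 129 between 501 and 1000 bp, 46.8% of 203 up to 2000 bp, 29.4% of 388 up to 5000 bp, 17.6% of 533 up to 10000 bp and 9.87% of 2301 up to 50000 bp. Beyond that, 84 of 3103 were members (2.71%, interval 2.16% to 3.34%). Seen from the members, 202 (28.0%) had CpG-rich sequence within 2 kb and 410 (56.9%) within 10 kb, against 177 (3.19%) and 788 (14.2%) of the 5557 with no peak. The median distance was 6973 bp for members and 53853 bp for those with no peak. CpG-rich sequence up to 1000 bp away reaches into the window that chose the members, so a peak over it alone can make a promoter a member. The shares up to 1000 bp are therefore partly built in. These intervals cover the counting of genes only: neighbouring genes are not independent, and all shares rest on the same 2 libraries.

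GC content moved with distance, and the share of members varied with each at a given class of the other. Of low-CpG promoters with a GC content under 45%, 34.4% of the 93 within 2 kb of CpG-rich sequence were members, against 0.634% of the 2999 that lay over 10 kb away. With a GC content of 55% or more the shares were 61.5% of 65 and 24.5% of 274. Far from CpG-rich sequence, the promoters of high GC content were thus members more often than those of low GC content, and in each of the 4 GC classes the share was highest within 2 kb. The range within 2 kb includes sequence that reaches into the window.

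**Figure D2:**
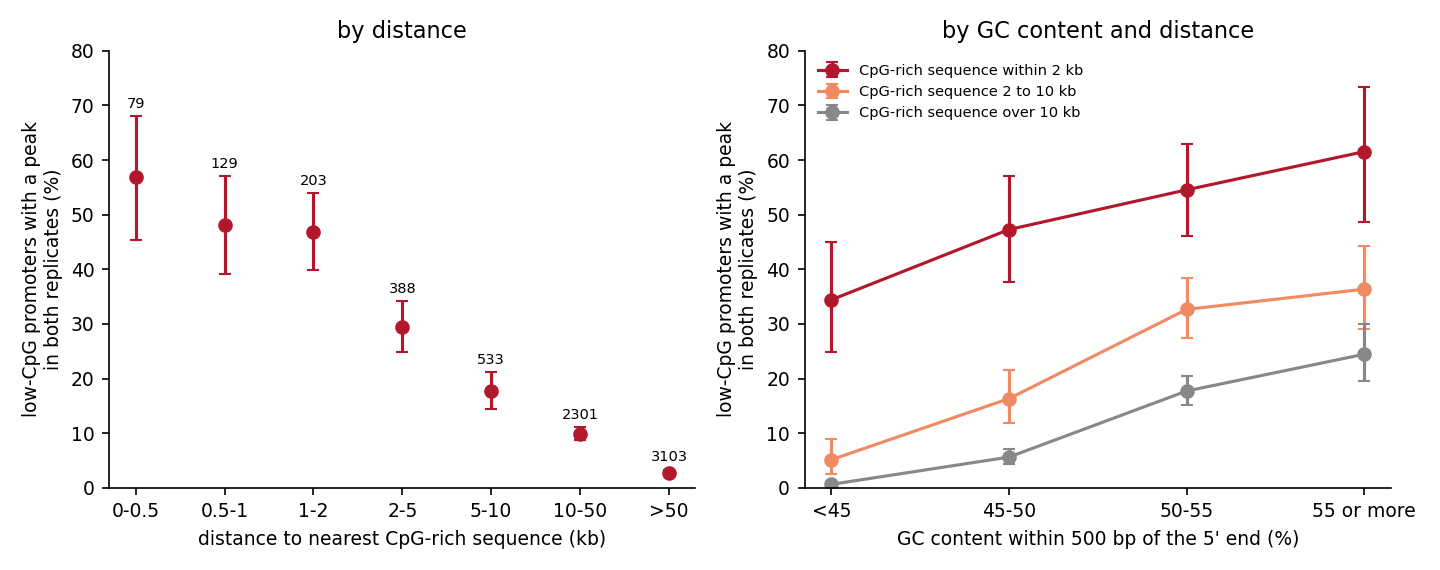
The y axis is the percent of low-CpG promoters with a peak in both replicates; the x axis is the distance to the nearest CpG-rich sequence in kb (left, with the number of promoters above each point) or the GC content in percent, split by that distance (right). Bars are exact 95% intervals over genes. The share declined from 57.0% within 500 bp to 2.71% beyond 50 kb, and in every GC class the points within 2 kb lie highest. Up to 1 kb the CpG-rich sequence reaches into the window that chose the members, so those shares are partly built in.

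The CpG-rich sequence near the members was mostly downstream of the 5′ end and mostly marked itself. Of the 202 stretches within 2 kb, 163 lay downstream and 39 upstream, and 177 (87.6%) held bases covered in both replicates. A downstream position was also the more frequent for promoters with no peak, at 130 of 177. Where the stretch began between 1 and 2 kb away, outside the window that chose the members, it held common bases for 86 of 95 members (90.5%) and for 5 of 84 promoters with no peak (5.95%). At 2 to 10 kb the counts were 126 of 208 (60.6%) and 118 of 611 (19.3%). Peaks are long, so the window and a stretch close to it can share a peak.

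The mark leaned downstream of the 5′ end. Common bases were more numerous downstream in 455 members (63.1%) and upstream in 189 (26.2%), and were equal in number in 77, of which 56 had none. Where CpG-rich sequence lay downstream within 2 kb, 108 of 163 members (66.3%) had more common bases downstream, and where it lay upstream, 23 of 39 (59.0%) had more upstream. Members without CpG-rich sequence within 2 kb also leaned downstream, in 334 of 519 (64.4%), as did 2805 (57.7%) of the 4858 marked promoters of ratio 0.30 or more. The 5′ end itself was covered in both replicates in 300 members (41.6%) and in neither in 238, against 36.4% covered in both for the marked promoters of ratio 0.30 or more. In the 100 bp bin just before the 5′ end those promoters were covered at 43.8% of bases in replicate 1 and 40.5% in replicate 2, members with CpG-rich sequence within 2 kb at 66.3% and 68.9%, and the other members at 45.6% and 44.5%. At Emilin2, 932 bp and 1172 bp of the window were covered, and all 890 common bases of the window lay downstream, on the side of its CpG-rich stretch, although the cover of replicate 2 and the domain of 6356 bp also reached upstream.

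**Figure D3:**
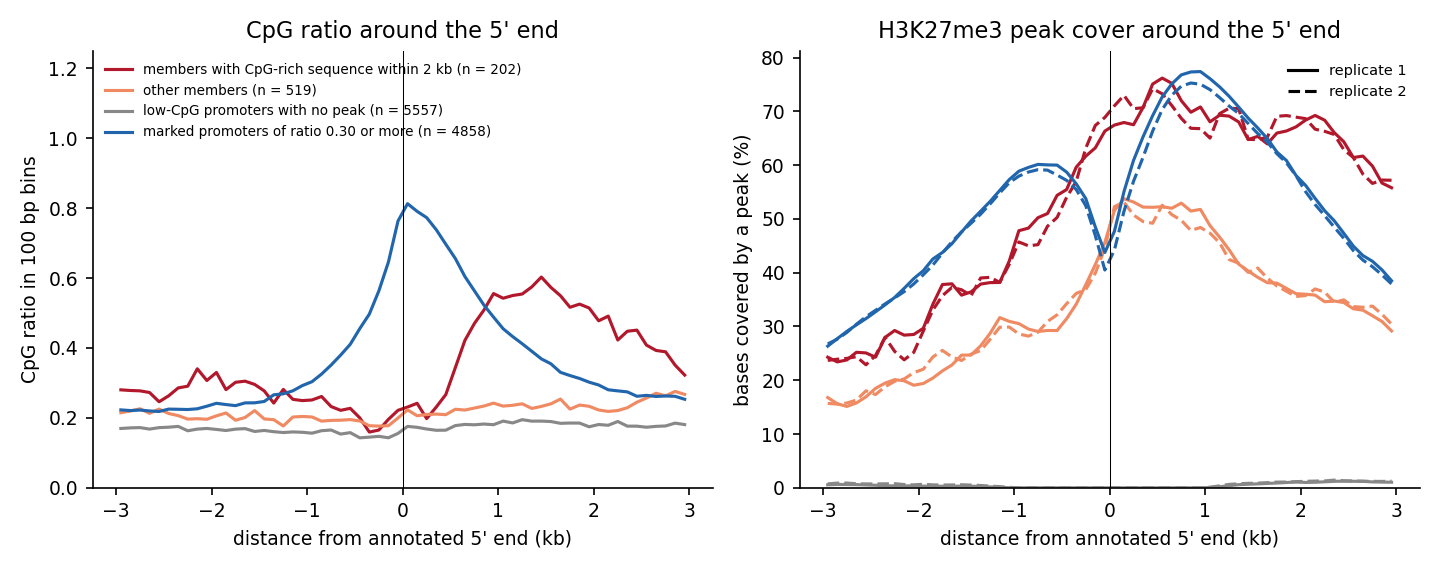
The x axis is the distance from the annotated 5′ end in kb, in 100 bp bins along the gene's strand; the left panel gives the CpG ratio and the right panel the percent of bases covered by a peak, for replicate 1 (solid) and replicate 2 (dashed), in 4 groups. Members with CpG-rich sequence within 2 kb have their highest CpG ratio in the bin centred 1450 bp downstream; their mean cover over the first 1 kb downstream is 71.3% in replicate 1 and 70.6% in replicate 2. The other members stay low in CpG throughout, with the highest cover 150 bp downstream.

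Joining bases covered in both replicates over gaps of up to 3 kb gives domains, and the domains that reach the windows sort the members into 4 classes. The first class is the 202 with CpG-rich sequence within 2 kb, with a median of 1154 common bases and median signals of 8.36 and 7.81. The second is 112 members (15.5%) whose CpG-rich sequence lay farther off but inside their domain. Their median distance to it was 3381 bp and their median domain 12477.5 bp long, with 922 common bases and signals of 6.57 and 6.51. In the third class, 360 members (49.9%) had a domain without CpG-rich sequence. Their domains had a median of 1937 bp, their common bases 461 bp and their signals 4.66 and 4.91. The last 47 (6.52%) had neither CpG-rich sequence within 2 kb nor a domain, and had signals of 4.03 and 3.76. A longer domain holds CpG-rich sequence more often by its length alone, so the order of the classes in length is partly built in. Common bases and signals come from the same peaks as the domains, so their order is not independent of this sorting either. The classes differed little in their own CpG ratio, with medians of 0.217, 0.189, 0.194 and 0.186.

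The third class shows that CpG-rich sequence by this definition was not in every marked region. A looser definition, 200 bp windows with a GC content of at least 50% and a ratio of at least 0.60, placed CpG-rich sequence within 2 kb of 162 of those 360 and of 440 of all 721 members (61.0%), against 16.9% of the promoters with no peak. By the main definition, the members farthest from both CpG-rich sequence and any annotated start of ratio 0.60 or more were Prr30, 1810010D01Rik, Ido1, Igf1 and Dlc1. Their distances to CpG-rich sequence alone were 398329, 264221, 245977, 236900 and 219845 bp. Ido1 had 1705 bp and 1824 bp covered with signals of 7.40 and 7.83. Igf1, the growth factor through which growth hormone acts, had 1424 bp and 1470 bp covered with signals of 4.66 and 3.57. Prr30 was covered over 199 bp and 337 bp, and Dlc1, a GTPase-activating protein, over 442 bp and 411 bp. By the looser definition CpG-rich sequence lay 754 bp from Dlc1, 996 bp from Ido1, 1290 bp from Igf1 and 1553 bp from 1810010D01Rik, and only Prr30, at 40681 bp, was far from it by both. In this set of 5 wide cover thus occurred at Ido1 and Igf1, and 1810010D01Rik had 293 bp in replicate 1 and 8 bp in replicate 2.

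Another annotated start of high CpG ratio lay near some members. Between 500 bp and 5 kb away, 152 members (21.1%) had a start of ratio 0.60 or more, against 4.73% of the low-CpG promoters with no peak, 20.4% of the marked promoters of ratio 0.30 or more and 16.1% of all genes. It was another start of the same gene for 94 members and a start of another gene for 75, with 17 counted under both. Starts of any ratio were also more frequent near members: 42.4% had another start of their own at that distance, against 29.9% of the promoters with no peak. The start of the gene's APPRIS principal transcript, the isoform annotated as main, lay at least 500 bp away for 154 members (21.4%), against 11.8% of those with no peak. It lay that far with a ratio of 0.60 or more for 68 members (9.43%), against 3.67% of those with no peak. For Kcnq1 the start of high ratio was its own, 892 bp downstream. For Emilin2 it was 988 bp downstream. For Igf2, the fetal growth factor, it lay 5511 bp away, beyond the 5 kb limit, so Igf2 is not among the 152. Cacna1s, the calcium channel of skeletal muscle, had the start of Ascl5, a neighbouring gene, 1946 bp away. Ckm, muscle creatine kinase, had that of Klc3 672 bp away. With CpG-rich sequence within 2 kb or such a start within 5 kb counted together, 247 members (34.3%) had at least 1, so 474 of 721 had neither.

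Some members lay in long domains. Of the 666 members with a domain, 146 (21.9%) lay in one of 10 kb or more, 63 in one of 20 kb or more and 7 in one of 50 kb or more. The median was 4418.5 bp, close to the 4708.5 bp of the marked promoters of ratio 0.30 or more. Hoxc4 lay in the longest, 172031 bp over the starts of 9 Hoxc genes, and Hoxb2 in one of 137675 bp over those of 9 Hoxb genes. Gm28230 lay in the Hoxd domain of 127440 bp. The other members in domains of 50 kb or more were outside the Hox clusters: Kncn (79357 bp, with 6430628N08Rik, Dmbx1 and Mknk1), Exoc3l4 (64887 bp, with Lbhd2 and Tnfaip2), Tet3 (53070 bp) and Nr2f2 (51044 bp). In 18 domains, 40 members shared a domain with another member. Pcdhb16, Pcdhb19, Pcdhb20, Pcdhb21 and Pcdhb22, adhesion molecules of the protocadherin beta cluster on chromosome 18, shared one of 49495 bp. Kcnq1 shared 24907 bp with Trpm5, a taste-cell channel, the leukotriene receptor genes Ltb4r1 and Ltb4r2 shared 30158 bp, and the sperm protamine genes Prm2 and Prm3 shared 8824 bp.

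Gene classes, set by gene symbol, were marked to unequal extents, and 352 members fell in no class. The symbol patterns were approximate, so the counts below are those of the symbols matched. Hmx2, a homeobox factor, fell in no class. Klf1, an erythroid factor, was counted with the transcription factor families, and Ckm, muscle creatine kinase, with the contractile proteins. Contractile proteins of muscle led the classes of at least 20 low-CpG promoters, with 17 of 39 (43.6%, exact 95% interval 27.8% to 60.4%), beside 10.7% of all low-CpG promoters. Transcription factor families of development (homeobox, forkhead, SOX, T-box, GATA, bHLH and nuclear receptors) had 18 of 44 (40.9%), neurotransmitter receptors 10 of 27 (37.0%), potassium channels 9 of 26 (34.6%), growth factors and their receptors 11 of 32 (34.4%) and other ion channels 14 of 43 (32.6%). Requiring every protein-coding transcript start of a gene to be under the limit gave 6 members in the transcription factor families. By the same rule the contractile proteins had 16. Solute carriers and G-protein-coupled receptors outside those families had 20 of 100 and 18 of 90 (20.0% each). Of 8 low-CpG promoters of the clustered protocadherins 7 were members. At any CpG ratio, 283 of 388 genes of the transcription factor families, 68 of 91 neurotransmitter receptors and 74 of 96 potassium channels were marked. So were 160 of 224 growth factors and receptors, 60 of 115 other ion channels and 53 of 57 clustered protocadherins. Contractile proteins had 27 of 75, solute carriers 145 of 372 and the other G-protein-coupled receptors 119 of 222, beside 26.8% of all genes.

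Several large families had few members or none. Olfactory receptors had 10 members of 1112 (0.899%), which became 20 when replicate 1 was left out, and defensins and other antimicrobial peptides 3 of 112 (2.68%). Of the vomeronasal receptors, pheromone sensors of the nose, 0 of 327 were members, an upper limit of 1.12%, and there were 0 of 49 taste and trace amine receptors and 0 of 41 conjugating enzymes of the Ugt, Sult and Gst families. Cytochromes P450 had 5 of 80 (6.25%). Other immune families lay nearer the 10.7% of all low-CpG promoters: interleukins, chemokines, interferons and their receptors had 16 of 128 (12.5%) and immunoglobulin-like receptors of blood cells 12 of 73 (16.4%). The GC content around the starts moved with these shares in part: the median was 36.4% for low-CpG olfactory receptors and 51.9% for low-CpG contractile genes, and its part in the result was not tested beyond the GC classes above. Of the olfactory receptors, Olfr95 had signals of 11.5 and 7.81 and lay 1468 bp from CpG-rich sequence, while Olfr463 and Olfr222 lay 43657 and 69271 bp from it (2642 and 4742 bp by the looser definition).

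**Figure D4:**
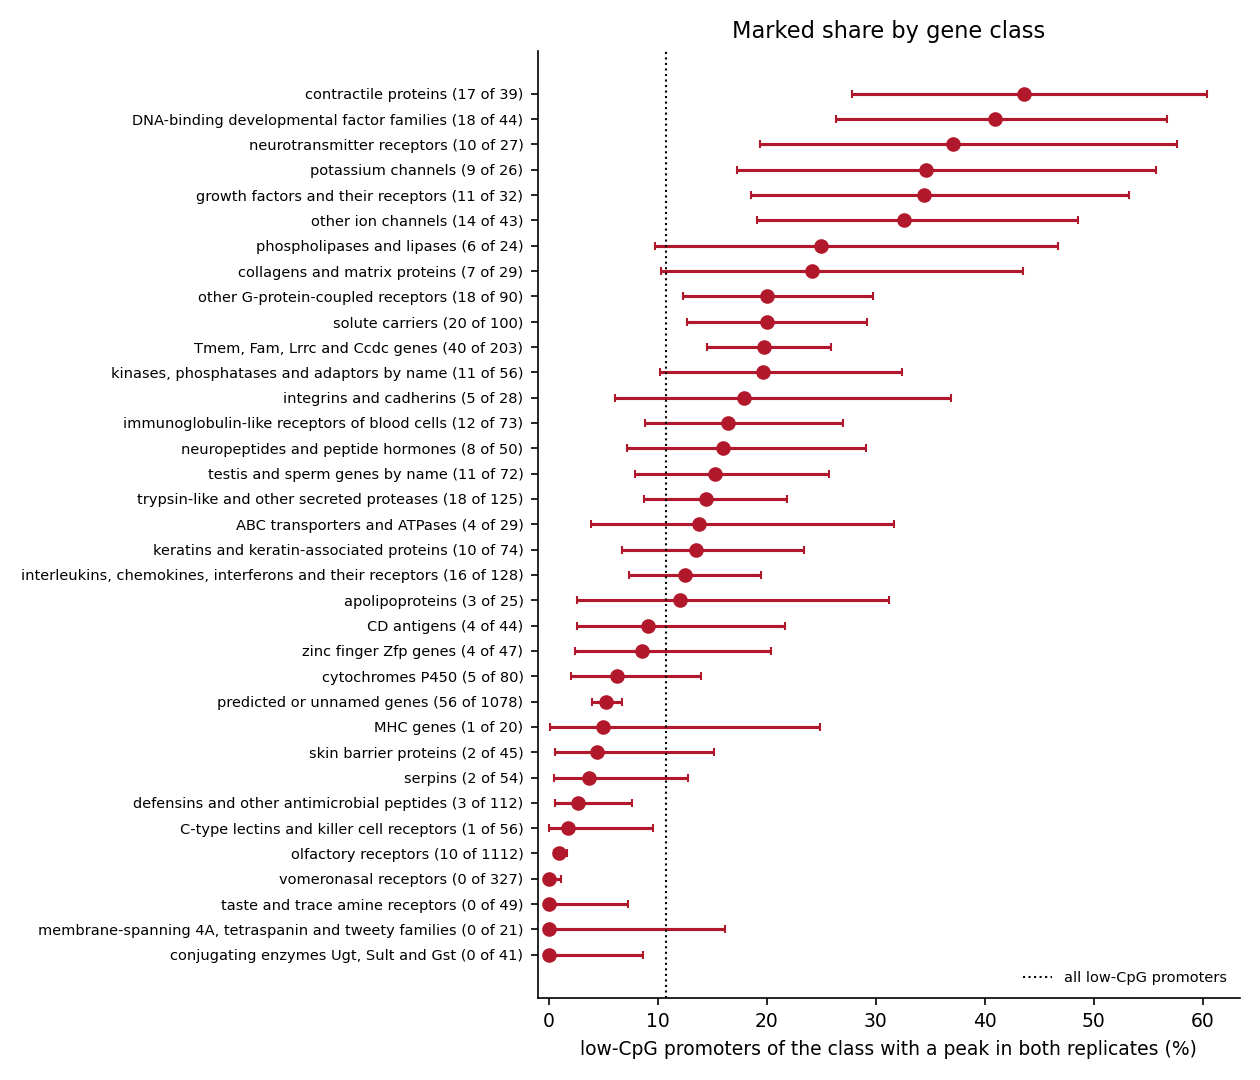
Each point is the percent of a class's low-CpG promoters with a peak in both replicates (x axis), for the classes with at least 20 such promoters, with the members and promoters counted in brackets; bars are exact 95% intervals over genes. The dotted line is the 10.7% of all low-CpG promoters; contractile proteins lie highest, at 43.6%, and vomeronasal receptors are at 0 of 327.

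The classes also differed in how their members lay to CpG-rich sequence. It was within 2 kb for 5 of 9 potassium channel genes, 5 of 8 neuropeptide and hormone genes, and 8 of 18 members each of the transcription factor families and of the other G-protein-coupled receptors. It was that near for 2 of 17 contractile genes, 3 of 20 solute carriers and 2 of 18 secreted proteases, beside 28.0% of all members. The classes differed in this among all their low-CpG promoters, marked or not. Those counts were 5 of 26 potassium channels, 5 of 50 peptides, 11 of 44 transcription factors and 8 of 90 receptors. They were 4 of 39 for contractile genes, 4 of 100 for solute carriers and 2 of 125 for proteases. The median of common bases was 1450.5 for the transcription factors, 1337 for potassium channels, 1323.5 for neuropeptides and 833.5 for the other G-protein-coupled receptors, and 715 for contractile genes, 497 for proteases and 310 for solute carriers. Within each of these sets the order by cover was not the order by nearness. These classes are small, and their differences were not tested.

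The potassium channels included Kcnj9, an inward rectifier of neurons, with 1854 bp and 1919 bp covered, and Kcng4, a modifier subunit, with 1795 bp and 1298 bp. Adra2c, an adrenergic receptor of the nervous system, had signals of 13.7 and 14.5 and CpG-rich sequence 66 bp away. Among the peptides were Avp (vasopressin), with 1780 bp and 1637 bp covered, and Cck (cholecystokinin), with the whole window and 1893 bp. Cck has another start of its own of high ratio 834 bp away. Among the transcription factors, Lhx3, a homeobox gene of pituitary and motor neurons, had 934 bp and 960 bp covered with signals of 15.6 and 11.5.

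Growth factor genes included Igf2, with signals of 15.6 and 10.5 at a CpG ratio of 0.061, Wnt8a, a signal of early embryonic patterning, with 12.1 and 8.19, and Fgfr1, a fibroblast growth factor receptor, with 8.77 and 7.81. Another start of Fgfr1 itself, of ratio 0.802, lay 5105 bp downstream. Of the cytokine and chemokine class, Il13 of type 2 immunity was covered over 1759 bp and 1780 bp. Among the solute carriers, Slc38a3, a glutamine transporter, had the whole window and 1917 bp, and among ion channels Scnn1a, a subunit of the epithelial sodium channel, was covered from end to end in both replicates, with CpG-rich sequence 6410 bp upstream by the main definition and 245 bp away by the looser one. Cyp27b1, which makes active vitamin D, was the P450 gene of highest signal, at 11.5 and 11.9, whereas Cyp17a1 and Cyp1a2, of steroid and xenobiotic metabolism, had signals of 3.84 to 5.49 in the 2 replicates.

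Hand-picked lists of tissue genes gave the same kind of account gene by gene. They were written with earlier results of these data known. Of the low-CpG promoters on each list, 14 of 27 muscle and heart genes were members (51.9%), 7 of 15 neural and sensory genes (46.7%), 2 of 6 developmental transcription factors, 6 of 29 blood and immune genes (20.7%), 5 of 25 liver, pancreas and plasma genes (20.0%), 5 of 25 skin and epithelial genes, 1 of 5 germline genes and 1 of 8 fibroblast genes, beside 10.7% of all low-CpG promoters.

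Muscle genes ranged from full to marginal cover. Myl7, the atrial myosin light chain, was covered over the whole window in replicate 1 and 1951 bp in replicate 2, and Tcap, the titin cap of the sarcomere, over 1784 bp and 1758 bp. Acta1 had 1674 bp and 1750 bp and signals of 12.6 and 13.0. The heart myosin heavy chains Myh6 and Myh7 had 1619 bp and 1334 bp, and 1009 bp and 1023 bp. Myl2, the ventricular light chain, had 1668 bp and 1229 bp. The troponins were lower: Tnnt2, of heart muscle, had 324 bp and 412 bp, Tnni1 308 bp and 542 bp, Tnnt3 426 bp and 685 bp, and Tnnc2 774 bp and 849 bp. Myh1 had 228 bp and 354 bp. No peak in either replicate was present at 9 low-CpG genes of this list, among them Actc1 (cardiac actin), Nppa (atrial natriuretic peptide), Pln (phospholamban) and Tnnc1.

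Of the neural genes, Th (tyrosine hydroxylase of dopamine synthesis) had 1534 bp and 1487 bp covered, and its nearest CpG-rich sequence lay 35955 bp upstream, or 4683 bp away by the looser definition. Pvalb (parvalbumin) had 1378 bp and 1535 bp, Camk2a (a kinase of synapses) 1407 bp and 1140 bp, and Otof (otoferlin of hair cells) 1148 bp and 906 bp. The photoreceptor genes Nrl, a rod transcription factor, and Gnat1, the rod transducin subunit, had 1202 bp and 915 bp, and 649 bp and 1039 bp. Opn1sw, a cone opsin, was marginal, with 22 bp and 162 bp. Blood genes included Epor, the erythropoietin receptor, with 1992 bp and 1996 bp, Itga2b, a platelet integrin, with 1081 bp and 1154 bp, and Klf1, an erythroid factor, with 962 bp and 642 bp. Mpo, the myeloperoxidase of neutrophils, had 706 bp and 373 bp. Spi1, the factor PU.1 of myeloid cells, had 576 bp in replicate 1 and 64 bp in replicate 2, so its replicates differed widely.

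The members from liver and pancreas, Ahsg, Apoa1, Apoc3, Cela1 and Cpa1, had between 98 and 785 bp covered in either replicate. Skin and epithelial members reached higher: Lor (loricrin) had 1842 bp and 1831 bp, Muc2 (an intestinal mucin) 1400 bp and 1719 bp, Krt7 1055 bp and 1363 bp, Col17a1 781 bp and 1370 bp, and Tgm1 542 bp and 604 bp. Gata4 was covered throughout in both replicates, and Foxn1, the thymus and hair factor, over 418 bp and 310 bp. Another start of Gata4 itself, of ratio 0.661, lay 26421 bp downstream inside the same domain of 34742 bp. CpG-rich sequence lay 1928 bp downstream of the Gata4 5′ end by the main definition and over it by the looser one. Tex101, a testis surface protein, had 374 bp and 330 bp. Col1a2, a collagen that fibroblasts make, had 1412 bp and 1420 bp and lay 95732 bp from CpG-rich sequence by the main definition and 513 bp by the looser one.

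**Figure D5:**
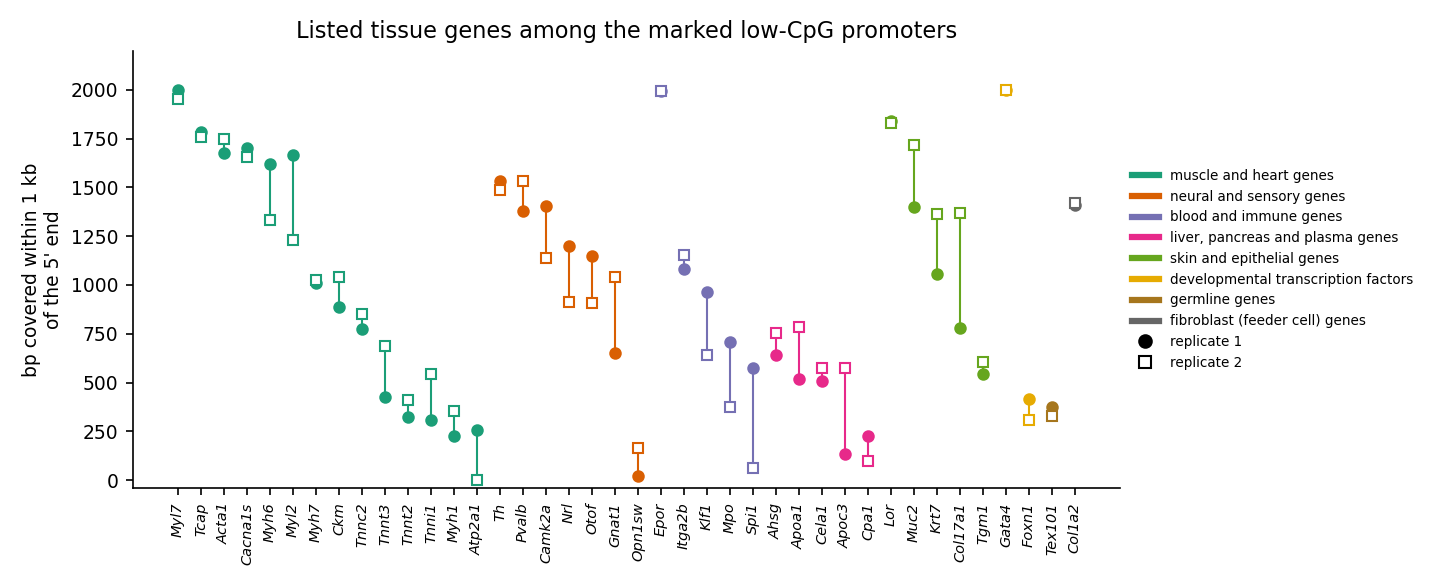
The y axis gives the bp covered within 1 kb of the 5′ end for the listed genes among the members (x axis), in replicate 1 (filled circle) and replicate 2 (open square), coloured by list. Muscle genes run from the whole window and 1951 bp at Myl7 to 256 bp and 1 bp at Atp2a1, and the liver and pancreas genes all lie under 800 bp.

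Peaks were also looked up at 6 stem cell markers, of which Pou5f1, Nanog, Sox2, Klf4 and Zfp42 had no peak in the window in either replicate. Esrrb, the sixth, is itself a member, with a ratio of 0.283 and 1447 bp and 741 bp covered. Its annotated 5′ end lies at position 86361117 of chromosome 12, 60527 bp upstream of another of its own starts of ratio 0.60 or more. Peak lists do not say which start the cells use. Of 6 fibroblast markers, Col3a1 and Acta2 had no peak and Col1a1, Col1a2, Pdgfra and Thy1 had one in both replicates. Over all autosomal protein-coding genes 26.8% were marked in both, so most genes lack a peak. The marker counts therefore cannot test the identity of the cells.

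Short motifs in the 250 bp before the 5′ end were counted on both strands. The E-box CAGCTG was present in 139 members (19.3%), against 12.4% of low-CpG promoters with no peak, 13.2% of marked promoters of ratio 0.30 or more and 12.1% of all genes. TATAAA, the core of the TATA box, was present in 76 members (10.5%), against 22.7%, 6.77% and 11.6%; the sequences of Tnf and Acta1 above hold it. The GC box GGGCGG was present in 106 members (14.7%), against 5.58%, 58.3% and 39.6%. GGGCGG contains a CpG and TATAAA none of C or G, so both counts can move with the base content that chose or accompanies the members. CAGCTG is mostly C and G, so its count can move with GC content too. The median GC content was 52.1% in members, 43.8% with no peak and 60.5% in marked promoters of ratio 0.30 or more. The part of base content in the counts of the 3 motifs was not tested. None of the 3 motifs contains another. A match is a match of letters only.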

How the data were processed

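H3K27me3 ChIP-seq peak lists of 2 biological replicates were used as deposited. Per the file headers, the pseudoreplicated mm10 list of each replicate was called on that replicate alone; for the aligner, the caller and its thresholds the sources used here give nothing. The signal value of each deposited peak is the authors' own and served to rank and describe peaks. The −log10 p and −log10 q columns are the authors' as deposited, and −log10 q served for an alternative limit of 2. Depth per library is unknown, and where no peak was called the reads may have been too few.

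The members and the gene lists were chosen with earlier results of these data known. Genes came from GENCODE mouse release 21, sequence from the RefSeq copy of GRCm38, the build of the lists. A peak counted when it overlapped the window of 1 kb on each side by at least 1 bp. No test was run: shares carry exact 95% intervals over genes. The geometry was checked on a simulated chromosome. Classes were set by patterns in gene symbols. Genes were named by rule: the 10 of widest cover and the 10 whose signal had the highest percentile rank averaged over replicates, up to 3 per class of at least 5 members, the 5 farthest from CpG-rich sequence and starts, the 5 of lowest ratio, 3 at each side of the limits, the 5 of highest rank near CpG-rich sequence, and all listed members, except 1 that is not reported here. The 10 of widest cover were taken alphabetically among 20 ties. Pcdhb16, Pcdhb22, Trpm5, Ltb4r2, Tet3, Nr2f2, Esrrb and the genes without a peak were named for their counts or markers. Alternatives were other windows, limits, peak lists, replicates and transcript starts. Python 3.11.15, NumPy 2.4.6, SciPy 1.17.1 and Matplotlib 3.10.9 were used.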

Additional observations from a re-analysis of the deposited data

How the results depend on the processing

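The number of members stayed within 1.5 times 721 under 9 of 13 alternatives and left it under 4: it was 264 with 50% of the window covered in each replicate, 300 with the 5′ end itself covered, 1346 with the relaxed lists and 1279 with the replicated list. In that order of settings, CpG-rich sequence within 2 kb was present for 47.3%, 40.7%, 17.2% and 18.8% of members (28.0% as reported), another start of ratio 0.60 or more for 28.4%, 27%, 14.5% and 15.6% (21.1% as reported), and the median common cover was 1422.5, 1253, 357 and 830 bp (582 bp as reported). At least 5 members were found in 12 classes under each of the 2 stricter rules, against 23. With peak windows of 0.5 kb and 2.5 kb on each side, the share near CpG-rich sequence was 32.0% and 23.2% and the median cover 465 and 753 bp of those windows. With the CpG ratio taken over 1 kb on each side the shares were 18.3% and 15.6% and the cover 571.5 bp, and with every protein-coding transcript start under the limit 21.02%, 11.6% and 535.5 bp. Ratio limits of 0.25 and 0.35 gave covers of 549 and 631.5 bp. Leaving out a replicate gave shares of 20.8% to 25.7% and of 17.0% to 19.2% and covers of 588 to 743 bp in the remaining one. CpG-rich sequence was found within 1 kb for 14.8%, within 5 kb for 43.8%, and within 2 kb by the 200 bp definition for 61.0%. Other starts of ratio 0.30 or more were found for 43.7%, and protein-coding starts of 0.60 or more for 17.6%. Contractile genes numbered 6 to 24, olfactory receptors 2 to 26, solute carriers 3 to 35 and the transcription factor families 6 to 25 over these settings. The cause of each shift was not tested, beyond the fact that stricter and looser peak rules admit fewer and more promoters.

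No paired analysis was possible because there is 1 group and no test. Depth is unknown, so a promoter without a peak is one at which none was called.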
